A study of Mus musculus with 30 samples.

Results

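The genes described here mark the 2 lymphocyte lineages. They are 36 genes in all, 13 of the B lineage (B cells and the plasma cells they give rise to) and 23 of the T and natural killer (T/NK) lineage. They were taken as a list of symbols and looked up in the gene names of 2 tables of raw counts, 54838 genes in kidney and 55487 in gastrocnemius, a fast muscle of the calf. All 36 were found in both tables. In kidney 13 of 13 B lineage and 19 of 23 T/NK lineage genes passed the filter on low counts, and in gastrocnemius 5 of 13 and 4 of 23 did. Genes under the filter were not tested, and are given by their counts.

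The 30 libraries came from male C57BL/6J wild-type mice of a diet study of fatty liver disease, in 3 groups with 5 libraries per tissue each. Mice of the CD group ate a control diet and received water by gavage. Mice of the WD group ate a western diet and also received water, and mice of the WD + CHP group ate the western diet and received cyclo (His-Pro), a cyclic dipeptide, by gavage at 20 mg/kg 3 times a week. All groups were housed at thermoneutrality, 30 to 32 °C, from 6 weeks of age. Diet and compound started at Week 7, and tissues were taken at Week 24, with food withdrawn for 3 h. The comparisons ask what the western diet changed (WD vs. CD) and what the compound changed on that diet (WD + CHP vs. WD), and WD + CHP vs. CD closes the triangle. These comparisons share their libraries, so each is given with its own values. The sources used here do not tie kidneys to muscles by animal.

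B cells carry an antibody on their surface as the B cell receptor, in which the signalling partners *Cd79a* and *Cd79b* sit beside the heavy and light immunoglobulin chains. A naive B cell makes IgM and IgD (*Ighm* and *Ighd* encode their constant regions). After class switching, a B cell or plasma cell uses another constant gene, such as *Igha* for IgA, the main antibody of mucosal surfaces, or an Ighg gene for IgG. *Igkc* encodes the constant region of the kappa light chain, which pairs with most heavy chains in the mouse, and *Jchain* the joining chain of IgM and IgA polymers. T cells recognise antigen through the T cell receptor, whose constant regions are encoded by *Trac*, *Trbc1* and *Trbc2*, held in the membrane by *Cd3d*, *Cd3e*, *Cd3g* and *Cd247*. *Cd4* and the *Cd8a* and *Cd8b1* pair mark helper and cytotoxic T cells, and the kinases *Lck* and *Zap70* and the adaptor *Lat* pass the signal on. In bulk tissue, fewer cells of a type and less RNA per cell cannot be told apart.

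The kidney libraries held 37189192 to 38211422 counts and the gastrocnemius libraries 50319024 to 53282969. A set of 8 proximal tubule markers summed to 12480 to 15152 CPM (counts scaled to a common library size) in the kidney libraries and to 0.0572 to 0.445 in gastrocnemius, and 8 markers of fast muscle fibres summed to 165607 to 227288 in gastrocnemius and to 17.5 to 28.7 in kidney. Some libraries stood apart in the genes described here. The summed level of 7 B lineage genes (*Cd79a*, *Cd79b*, *Ms4a1*, *Cd22*, *Pax5*, *Blk* and *Pou2af1*) was 12.6 and 9.09 CPM in replicates 3 and 2 of the kidney WD group and 7.86 CPM in replicate 2 of the kidney WD + CHP group, against 2.19 to 4.67 CPM in the other 12 kidney libraries. In gastrocnemius, replicate 4 of the WD group had 1.31 CPM, against 0.191 to 0.573 CPM elsewhere. The kidney calls and counts of direction are also given without the 3 kidney libraries, and *Igkc* and *Jchain* of muscle without WD replicate 4.

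In kidney, the western diet raised a small number of B and T cell genes. On the WD, *Ighm* was 3.38 times its CD level, the B cell coactivator *Pou2af1* 2.74 times and the B cell kinase *Blk* 2.00 times. In the T/NK lineage, *Cd8a* was 1.79 times, the T cell receptor gene *Trbc2* 1.68 times and *Lck* 1.59 times its CD level. In all, 3 of 13 B lineage and 3 of 19 T/NK lineage genes tested had an adjusted p under 0.05, each of them higher on the WD and none lower. That is 23.1% and 15.8% of the genes tested, beside 9.65% of all 17120 kidney genes called in either direction in this comparison. Of the genes called, *Blk* passed the filter on low counts mainly through the WD libraries. By direction, 11 of 13 B lineage genes and 19 of 19 T/NK lineage genes were higher on the WD. Their median log2 fold changes were 0.88 and 0.62, and that of all genes tested was 0.0015. The B lineage median was 0.57 without WD replicate 3. At an unadjusted p under 0.05 there were 10 B lineage and 10 T/NK lineage genes, beside 24.9% of all genes. Without the 3 kidney libraries highest in B cell genes (WD replicates 2 and 3 and WD + CHP replicate 2), a choice made after the data were seen, 0 of 31 genes then tested were called by edgeR, beside 3.94% of all genes. In those fits 10 of 13 B lineage and 15 of 18 T/NK lineage genes were higher on the WD, with medians of 0.21 and 0.32. As these libraries were picked for their high B cell genes, leaving them out lowers the WD level of those genes by construction. Here and below, a call lost in this setting was partly fixed in advance, also by the smaller number of libraries. Without WD replicate 2 alone or WD replicate 3 alone, 1 was called (*Cd8a* and *Blk*, respectively). The count was 2 without CD replicate 1, 3 without CD replicate 2, 3 or 5, and 10 without WD replicate 1.

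The 6 calls also varied with the setting. With 1 of the 10 libraries left out in turn, *Blk* and *Pou2af1* were called in 6 of 10 fits, *Ighm* in 5, *Cd8a* and *Lck* in 4 and *Trbc2* in 3, with adjusted p of up to 0.122 (*Trbc2*, without WD replicate 3). *Blk* was lost when CD replicate 2, CD replicate 3, WD replicate 2 or WD replicate 5 was left out, and *Pou2af1* when CD replicate 1, CD replicate 4, WD replicate 2 or WD replicate 3 was. *Ighm* was lost on leaving out replicate 1, 3 or 5 of CD or replicate 2 or 3 of WD, and *Lck* on leaving out replicate 1, 3 or 4 of CD or replicate 2, 3 or 5 of WD. For *Cd8a* these were replicates 2, 3, 4 and 5 of CD and 3 and 4 of WD, and for *Trbc2* replicates 1, 2, 4 and 5 of CD and 2, 3 and 5 of WD. *Blk* was not called with no filter on low counts (adjusted p = 0.0604), and DESeq2 gave it no adjusted p. DESeq2 called 9 of the 29 genes to which it gave one, 5 of the 6 and also *Ms4a1*, *Cd22*, *Cd3g* and *Cd4*. *Pou2af1* was not called by limma-voom (adjusted p = 0.0722). *Trbc2* was not called with the total count as library size (adjusted p = 0.0509), with no filter (adjusted p = 0.0674) or with only the 2 groups compared (adjusted p = 0.0724).

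**Figure D1:**
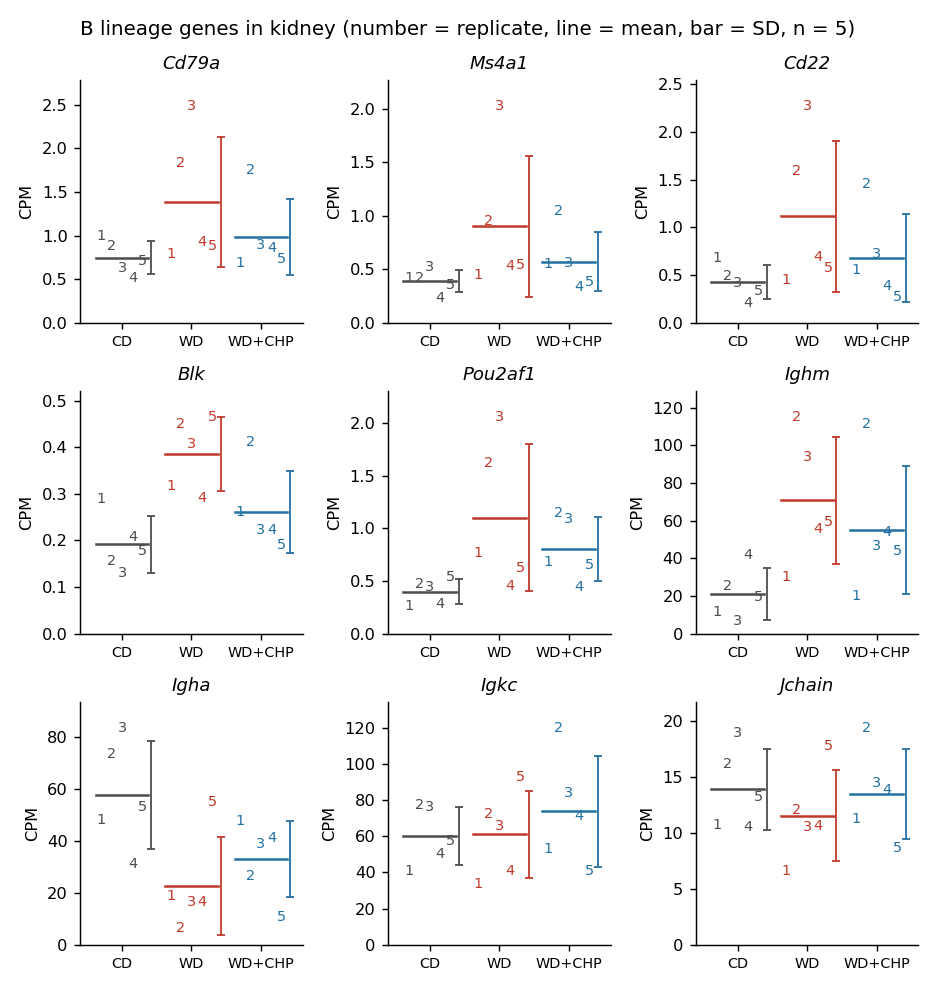
CPM of 9 B lineage genes in each kidney library of the CD, WD and WD + CHP groups, each panel starting at 0. Digits are replicate numbers, lines are group means and bars are SD (n = 5); WD replicates 2 and 3 and WD + CHP replicate 2 lie at the top for *Cd79a*, *Ms4a1* and *Cd22*, and 4 of 5 WD replicates lie below every CD replicate for *Igha*.

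Of the genes for B cell surface and nuclear proteins, *Cd79a* (chr7:24897381-24902197, plus strand, GRCm38) was at 0.995, 0.882, 0.628, 0.516 and 0.712 CPM in CD replicates 1 to 5. In the WD replicates, it was at 0.791, 1.83, 2.49, 0.923 and 0.879 CPM, and in WD + CHP at 0.679, 1.75, 0.890, 0.860 and 0.731 CPM. Only WD replicates 2 and 3 and WD + CHP replicate 2 lay above every CD library, and the change from CD to WD did not pass the test (log2 fold change 0.88 ± 0.34, adjusted p = 0.109; here and below ± is the SE). *Ms4a1*, which encodes the membrane protein CD20, was at 0.419, 0.415, 0.523, 0.232 and 0.356 CPM in CD, 0.448, 0.954, 2.03, 0.528 and 0.543 CPM in WD and 0.548, 1.04, 0.556, 0.333 and 0.379 CPM in WD + CHP. WD replicates 3 and 2 and WD + CHP replicate 2 stood at the top, and 4 of 5 WD libraries lay above the CD range (log2 fold change 1.20 ± 0.42, adjusted p = 0.0777).

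*Blk*, a kinase of the Src family that signals from the B cell receptor, was at 0.288, 0.156, 0.131, 0.206 and 0.178 CPM in CD and 0.317, 0.451, 0.406, 0.290 and 0.465 CPM in WD, with no overlap between the groups. The difference passed the test (log2 fold change 1.00 ± 0.26, adjusted p = 0.0230), on 5 to 18 counts per library. In WD + CHP it was at 0.261, 0.411, 0.223, 0.222 and 0.189 CPM, where 4 of 5 libraries lay below the whole WD range, at a log2 fold change against WD of -0.56 ± 0.25 (adjusted p = 0.410). *Pou2af1*, a coactivator of immunoglobulin gene transcription, was at 0.262, 0.467, 0.444, 0.284 and 0.534 CPM in CD, 0.765, 1.62, 2.06, 0.448 and 0.620 CPM in WD and 0.679, 1.15, 1.09, 0.444 and 0.649 CPM in WD + CHP. In 4 of 5 libraries each, WD and WD + CHP lay above the CD range. Its change on the WD was called (log2 fold change 1.46 ± 0.40, adjusted p = 0.0298), and the change in WD + CHP vs. CD was not (1.00 ± 0.41, adjusted p = 0.124). Without the 3 libraries high in B cell genes, the WD change of *Blk* was 0.89 (adjusted p = 0.0961) and that of *Pou2af1* 0.61 (adjusted p = 0.296).

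The remaining genes of this kind were also highest in WD replicate 3. *Cd79b*, the inhibitory receptor *Cd22* and the transcription factor *Pax5* had log2 fold changes on the WD of 0.71 ± 0.31 (adjusted p = 0.162), 1.38 ± 0.49 (adjusted p = 0.0871) and 1.17 ± 0.47 (adjusted p = 0.124). Among the 13 B lineage genes, the highest library was WD replicate 3 for 8, WD + CHP replicate 2 for 2, and CD replicate 3, WD replicate 2 and WD replicate 5 for 1 each. Parts of *Cd22* and *Pax5* share exon bases with other genes in GENCODE M21 (*Gm29439* for *Cd22*, *Gm12462* and *5730488B01Rik* for *Pax5*), and their counts may include reads of those. The plasma cell protein *Mzb1*, an endoplasmic reticulum cochaperone of antibody assembly, had overlapping levels, 1.96 ± 0.565 CPM (SD, n = 5) in CD, 2.36 ± 0.510 CPM in WD and 2.17 ± 0.351 CPM in WD + CHP.

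RefSeq (GRCm38.p6) gave the sequence around a start site for 19 of the 36 genes. The 250 bases before each start were searched on both strands for the octamer ATTTGCAT, which binds the Oct factors that *Pou2af1* works with, for the 10-base palindrome of early B cell factor, and for the E-box letters CAGCTG and CAGGTG, and on the coding strand for TATAAA. The windows of *Cd22*, *Cd79a* and *Lck* are shown since they belong to genes of both lineages and hold the matches, in capitals. Each is written 5′ to 3′ along the gene.
Cd22: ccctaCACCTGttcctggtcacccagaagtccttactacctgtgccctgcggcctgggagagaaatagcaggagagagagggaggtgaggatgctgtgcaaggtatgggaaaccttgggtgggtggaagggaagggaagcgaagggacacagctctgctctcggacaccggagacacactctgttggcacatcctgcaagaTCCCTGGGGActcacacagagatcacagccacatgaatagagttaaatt
Cd79a: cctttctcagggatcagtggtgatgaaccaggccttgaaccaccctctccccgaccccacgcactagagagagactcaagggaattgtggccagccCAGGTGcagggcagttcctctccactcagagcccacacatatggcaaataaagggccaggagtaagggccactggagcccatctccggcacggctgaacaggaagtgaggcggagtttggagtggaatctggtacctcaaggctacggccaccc
Lck: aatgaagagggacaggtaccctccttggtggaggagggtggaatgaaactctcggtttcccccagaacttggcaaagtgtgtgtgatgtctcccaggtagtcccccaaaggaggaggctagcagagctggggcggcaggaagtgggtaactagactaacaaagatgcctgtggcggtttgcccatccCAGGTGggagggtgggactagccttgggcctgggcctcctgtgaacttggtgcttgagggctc

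The *Cd22* window lies at chr7:30879029-30879278 on the minus strand, and holds the palindrome from 49 bases before the start and the E-box from 245 bases before it. The *Cd79a* window is chr7:24897247-24897496 on the plus strand, with an E-box from 154 bases before the start. For *Lck*, the window of the nearer of its 2 start sites is chr4:129558373-129558622 on the minus strand, and its E-box begins 63 bases before the start. These RefSeq starts differ from the gene ends in GENCODE M21. There, the *Cd22* and *Lck* windows lie inside the gene, and the *Cd79a* window does in part. The palindrome was found in the window of 1 of 5 B lineage genes and 0 of 14 T/NK lineage genes, and in 0.779% of 32851 windows of all genes. CAGGTG or its reverse complement was found for 2 of 5 and 8 of 14 genes, and in 17.2% of all windows. The octamer, CAGCTG and TATAAA were not found in the windows of these 19 genes, and lay in 1.60%, 13.0% and 7.59% of all windows. These are matches of letters, and no binding was measured here.

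The antibody genes differed in direction in kidney: *Ighm* rose on the WD, whereas *Igha* was lower on the WD without passing the test. *Ighm* (chr12:113418558-113422730, minus strand) was at 11.4, 25.4, 6.54, 42.0 and 19.3 CPM in CD and 30.0, 115, 93.6, 55.8 and 59.4 CPM in WD. In WD, 4 of 5 libraries lay above every CD library, and replicate 1 lay inside the CD range. The rise was called (log2 fold change 1.76 ± 0.47, adjusted p = 0.0277), and was 1.21 (adjusted p = 0.147) without the 3 libraries high in B cell genes. In WD + CHP, *Ighm* was at 19.98, 112, 46.4, 54.0 and 43.9 CPM, a log2 fold change of 1.397 ± 0.47 (adjusted p = 0.0626) against CD and -0.36 ± 0.45 (adjusted p = 0.818) against WD. *Igha* (chr12:113254830-113260236, minus strand) was at 48.0, 73.5, 83.5, 31.2 and 53.1 CPM in CD and 18.9, 6.47, 16.4, 16.5 and 55.0 CPM in WD. In WD, 4 of 5 libraries lay below every CD library, and replicate 5 lay within the CD range. The difference did not pass the test (log2 fold change -1.35 ± 0.45, adjusted p = 0.0662). It did pass without WD replicate 5 (-1.99, adjusted p = 0.00566) or without CD replicate 4 (-1.51, adjusted p = 0.0475), by limma-voom (-1.61, adjusted p = 0.0359) and with no filter (-1.35, adjusted p = 0.0379), and was -0.94 (adjusted p = 0.281) without the 3 libraries high in B cell genes. In WD + CHP it was at 47.8, 26.7, 38.8, 41.3 and 10.7 CPM, between the other 2 groups in its mean, at 0.54 ± 0.45 (adjusted p = 0.692) against WD and -0.81 ± 0.44 (adjusted p = 0.253) against CD.

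The light chain and joining chain genes overlapped between the groups. *Igkc* (chr6:70726435-70726966, plus strand) was at 41.0, 77.2, 75.9, 49.9 and 57.3 CPM in CD, 33.8, 72.1, 65.6, 41.0 and 92.5 CPM in WD and 52.9, 120, 84.1, 71.1 and 40.9 CPM in WD + CHP. No group stood apart, with a log2 fold change on the WD of 0.018 ± 0.29 (adjusted p = 0.979) and in WD + CHP vs. WD of 0.27 ± 0.29 (adjusted p = 0.769). *Jchain* was at 10.7, 16.2, 19.0, 10.6 and 13.2 CPM in CD, 6.57, 12.1, 10.51, 10.7 and 17.8 CPM in WD and 11.2, 19.4, 14.5, 13.9 and 8.63 CPM in WD + CHP. Its values overlapped as well (log2 fold change -0.27 ± 0.24, adjusted p = 0.520 for WD vs. CD). *Ighd*, at 28 to 109 counts per library, had a log2 fold change on the WD of 0.64 ± 0.29 (adjusted p = 0.176).

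Per kb of exon, the make-up of the heavy-chain constant genes (*Ighm*, *Ighd*, 4 Ighg genes and *Igha*) differed between libraries. *Ighm* took a median of 25.1% of these reads in CD (9.55% to 57.3%), 71.2% in WD (50.4% to 81.5%) and 57.4% in WD + CHP (26.8% to 70.2%). *Igha* took 59.5% in CD (30.1% to 86.3%), 14.9% in WD (3.24% to 33.0%) and 22.2% in WD + CHP (10.0% to 45.3%). The 4 Ighg genes took 10.1%, 13.8% and 25.7% in the same order, and their CD range (1.71% to 24.8%) covered the WD range. In WD, replicate 2 had the highest *Ighm* share and replicate 5 the lowest, and in CD replicate 4 had the highest and replicate 3 the lowest. The shares are given as a description, with no test of their own. Variable segments were read in every kidney library, 47 to 69 of 185 *Ighv* genes and 55 to 74 of 160 *Igkv* genes per library with at least 1 count, and 105 and 101 over all 15. No segment took more than 20.4% of the *Ighv* or 23.5% of the *Igkv* counts of a library.

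**Figure D2:**
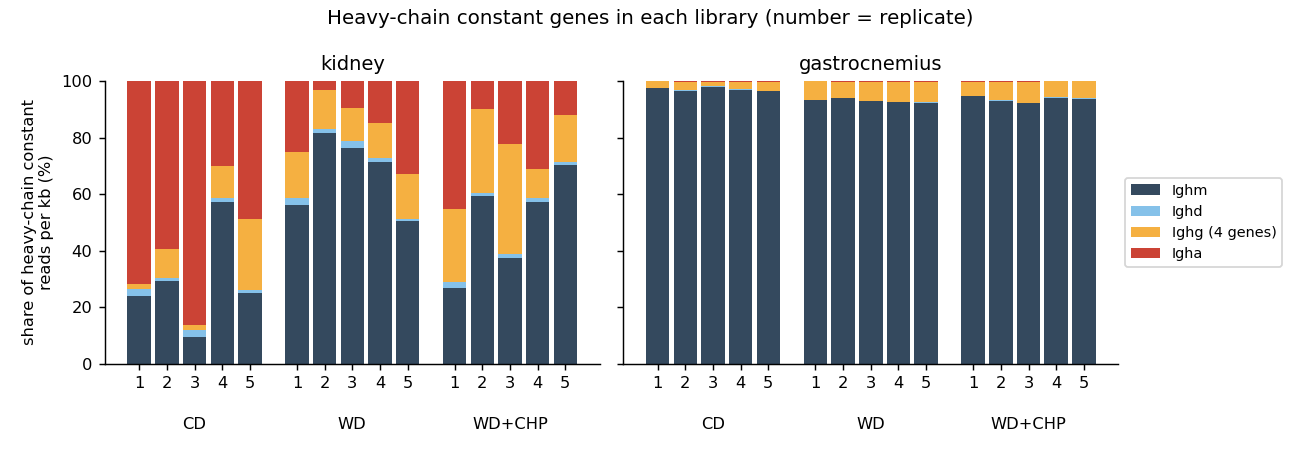
Share of reads per kb of exon over the heavy-chain constant genes in each library, kidney left and gastrocnemius right, as stacked bars from 0 to 100%. Median *Ighm* shares in kidney were 25.1% in CD, 71.2% in WD and 57.4% in the WD + CHP group, and in gastrocnemius *Ighm* took 96.4% to 98.1% in CD, 92.1% to 93.9% in WD and 92.1% to 94.6% in WD + CHP.

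The T/NK lineage genes were low in kidney and the changes called were under 1 unit on the log2 scale. The CD3 chain gene *Cd3e* was at 0.262, 0.182, 0.366, 0.310 and 0.280 CPM in CD, 0.290, 0.636, 0.677, 0.369 and 0.439 CPM in WD and 0.470, 0.411, 0.334, 0.194 and 0.271 CPM in WD + CHP. WD replicates 2 and 3 were highest, and 4 of 5 WD libraries lay above the CD range without the change passing the test (log2 fold change 0.78 ± 0.28, adjusted p = 0.0899). *Cd3g* was close to the threshold (log2 fold change 0.88 ± 0.27, adjusted p = 0.0511). *Cd247*, whose exons share bases with *Pou2f1*, had a log2 fold change 0.33 ± 0.28, adjusted p = 0.519. *Cd3d* had 2 to 24 counts per library and was not tested.

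*Trbc2* was at 0.550, 0.519, 0.915, 0.568 and 0.483 CPM in CD, 0.712, 1.22, 1.46, 0.739 and 0.982 CPM in WD and 0.731, 0.821, 0.556, 0.582 and 0.677 CPM in WD + CHP. In WD 3 libraries lay above the CD range, in which CD replicate 3 was highest, and WD vs. CD was called (log2 fold change 0.75 ± 0.23, adjusted p = 0.0444). In WD + CHP vs. WD it was not (-0.60 ± 0.22, adjusted p = 0.308). The T cell receptor alpha gene *Trac*, at 53 to 101 counts, overlapped between the groups (log2 fold change 0.061 ± 0.19, adjusted p = 0.878), and so did *Trbc1* (0.15 ± 0.27, adjusted p = 0.770). *Trbc1* and *Trbc2* are near-identical copies, so reads may be split between them in a way these counts do not show.

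The coreceptor gene *Cd4*, also expressed by some macrophages, was at 0.759, 0.674, 0.784, 1.11 and 0.840 CPM in CD, 0.897, 1.80, 1.49, 1.16 and 1.09 CPM in WD and 0.862, 0.985, 0.612, 0.666 and 0.920 CPM in WD + CHP. Its WD libraries were higher in 3 of 5 than every CD library (log2 fold change 0.62 ± 0.20, adjusted p = 0.0600), and 3 of 5 WD + CHP libraries lay below every WD library (-0.67 ± 0.20, adjusted p = 0.201). *Cd4* had the smallest unadjusted p of a T/NK lineage gene for WD + CHP vs. WD in kidney, 0.00451. *Cd8a*, which pairs with itself or with *Cd8b1*, was at 0.812, 0.571, 0.654, 0.593 and 0.636 CPM in CD, 0.791, 1.03, 1.30, 1.74 and 0.982 CPM in WD and 1.04, 1.20, 0.584, 0.638 and 0.839 CPM in WD + CHP. WD replicate 4 was highest, 4 of 5 WD libraries lay above the CD range, and WD vs. CD was called (log2 fold change 0.84 ± 0.23, adjusted p = 0.0311). *Cd8b1* had a log2 fold change 0.32 ± 0.33, adjusted p = 0.597.

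*Lck*, the kinase that starts T cell receptor signalling, was at 0.576, 1.06, 0.811, 0.593 and 1.02 CPM in CD and 1.11, 1.33, 1.49, 1.11 and 1.42 CPM in WD, with no overlap between the groups, and WD vs. CD was called (log2 fold change 0.66 ± 0.18, adjusted p = 0.0288). In WD + CHP it was at 0.914, 1.09, 1.00, 1.28 and 0.947 CPM, where 4 of 5 libraries lay below the WD range (-0.30 ± 0.18, adjusted p = 0.550). *Cd27*, a costimulatory receptor of the TNF receptor family on T cells and memory B cells, was at 0.681, 0.545, 0.523, 0.619 and 0.433 CPM in CD, 0.343, 1.06, 1.14, 1.03 and 0.853 CPM in WD and 0.627, 1.15, 0.918, 0.943 and 1.08 CPM in WD + CHP, and had the smallest unadjusted p (0.0102) of a T/NK lineage gene for WD + CHP vs. CD (log2 fold change 0.75 ± 0.26, adjusted p = 0.0687). *Gzma*, a granzyme of cytotoxic lymphocytes, had 8, 3, 6, 6 and 6 counts in CD, 6, 9, 4, 5 and 9 in WD and 5, 6, 3, 7 and 3 in the WD + CHP group, and was not tested. Neither were *Ptprcap* (0 to 6 counts) and *Cd28* (0 to 4). Without the 3 libraries high in B cell genes, the WD change was 0.84 (adjusted p = 0.0921) for *Cd8a*, 0.58 (adjusted p = 0.162) for *Lck* and 0.42 (adjusted p = 0.324) for *Trbc2*.

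The other 8 tested genes of the T/NK lineage were not called in kidney. The adhesion receptor *Cd2* and the lymphotoxin gene *Ltb* had log2 fold changes on the WD of 0.80 ± 0.32 (adjusted p = 0.122) and 0.84 ± 0.33 (adjusted p = 0.115). Those of the surface receptors *Cd5* and *Cd6* were 0.53 ± 0.36 (adjusted p = 0.396) and 0.74 ± 0.30 (adjusted p = 0.133). *Il7r*, the interleukin 7 receptor, the signalling genes *Lat* and *Zap70* and the cytotoxic granule gene *Nkg7* lay between 0.19 (*Zap70*) and 0.29 (*Il7r*). In WD + CHP vs. WD, these 8 genes ranged from -0.72 (*Cd6*) to 0.019 (*Nkg7*). Exons of *Lck*, *Cd27*, *Lat* and *Cd3e* share bases with small or non-coding genes, and those of *Ptprcap* with *Coro1b* and *Rps6kb2*, whose reads their counts may include.

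**Figure D3:**
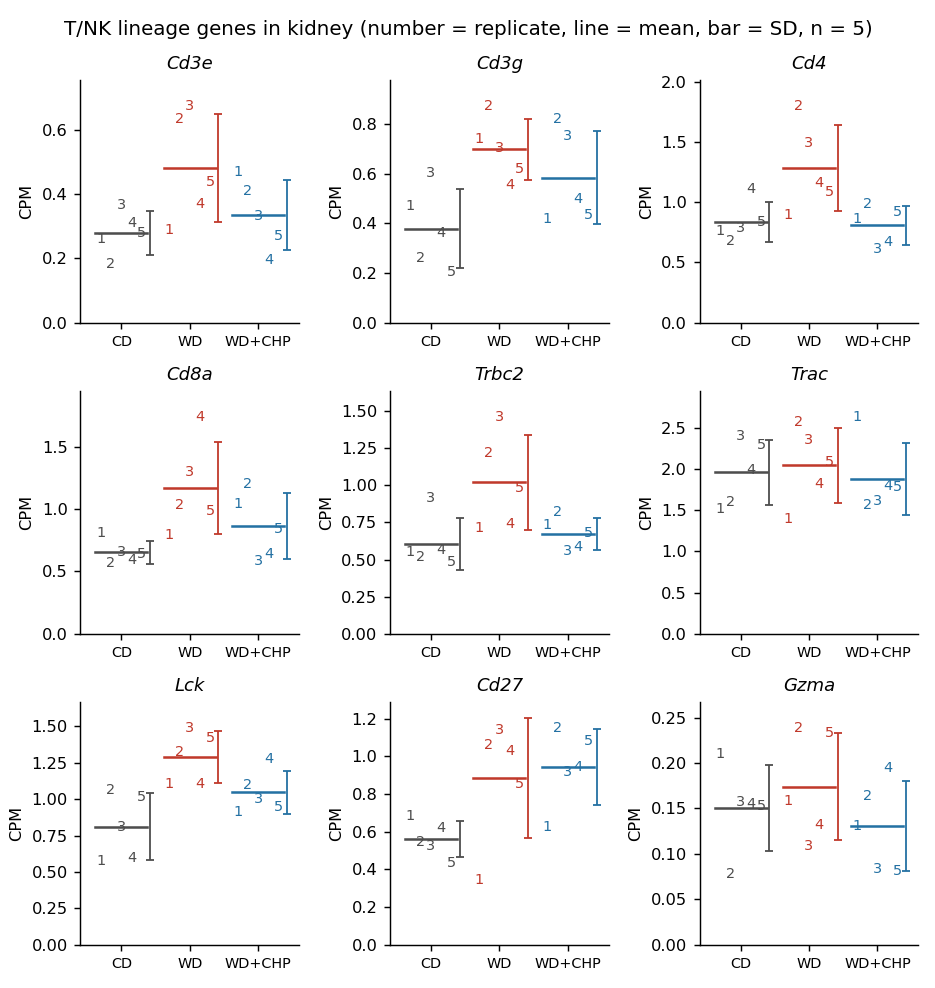
CPM of 9 T/NK lineage genes in each kidney library, each panel starting at 0. Digits are replicate numbers, lines are means and bars are SD (n = 5); *Lck* was above the whole CD range in all 5 WD libraries, and *Trac* overlapped throughout.

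No gene of either lineage passed the test for WD + CHP vs. WD in kidney, although most were lower in WD + CHP. The count was 0 of 32 by edgeR and limma-voom, beside 0.105% of all genes called, with 1 B lineage and 3 T/NK lineage genes at an unadjusted p under 0.05 and 11.4% of all genes at that level. DESeq2 gave an adjusted p to 4 of the 32 and called 0 of them. In direction, 10 of 13 B lineage and 17 of 19 T/NK lineage genes were lower in WD + CHP than in WD, with median log2 fold changes of -0.46 and -0.30 against -0.0058 over all genes. With 1 library left out, the B lineage median ran from -0.63 to -0.11, at -0.11 without WD replicate 3 and -0.27 without WD replicate 2, and that of the T/NK lineage from -0.43 to -0.25. Without WD replicates 2 and 3 and WD + CHP replicate 2, 8 of 13 B lineage genes were lower, with a median of -0.019, and 14 of 18 T/NK lineage genes, with a median of -0.23. *Pou2af1* turned from -0.46 to 0.22 there (adjusted p = 0.870). With all libraries, some other lists leaned the same way with 0 called by edgeR: 10 of 12 leukocyte genes, 8 of 10 macrophage genes, 6 of 6 MHC class II genes and 13 of 16 further T and NK cell genes were lower, with 1, 0, 1 and 2 at an unadjusted p under 0.05. Without the 3 libraries these counts were 7, 8, 3 and 13. Of the further B and plasma cell genes, 14 of 20 were lower (median -0.32), and 8 of 19 without the 3 libraries (median 0.040). With all libraries, 4 of 5 adipocyte genes were higher in WD + CHP, and proximal tubule genes were split, 4 higher and 4 lower. The summed leukocyte level was 95.2 to 120 CPM in WD and 82.5 to 117.4 in WD + CHP, and the part of these cells in the result was not tested. The count for WD + CHP vs. CD was 0 of 32 by edgeR and by limma-voom and 1 (*Cd27*) by DESeq2, beside 12.1% of all genes called in that comparison, with 2 genes of each lineage at an unadjusted p under 0.05, beside 27.4% of all genes. *Ighm* was called without CD replicate 4 or WD + CHP replicate 1 (adjusted p = 0.0243 and 0.0308), and *Cd27* without WD + CHP replicate 1 (adjusted p = 0.0379). The 3 smallest adjusted p were those of *Ighm* (1.397 ± 0.47, adjusted p = 0.0626), *Cd27* (0.75 ± 0.26, adjusted p = 0.0687) and *Pou2af1* (1.00 ± 0.41, adjusted p = 0.124). The 3 comparisons share libraries and are not independent.

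**Figure D4:**
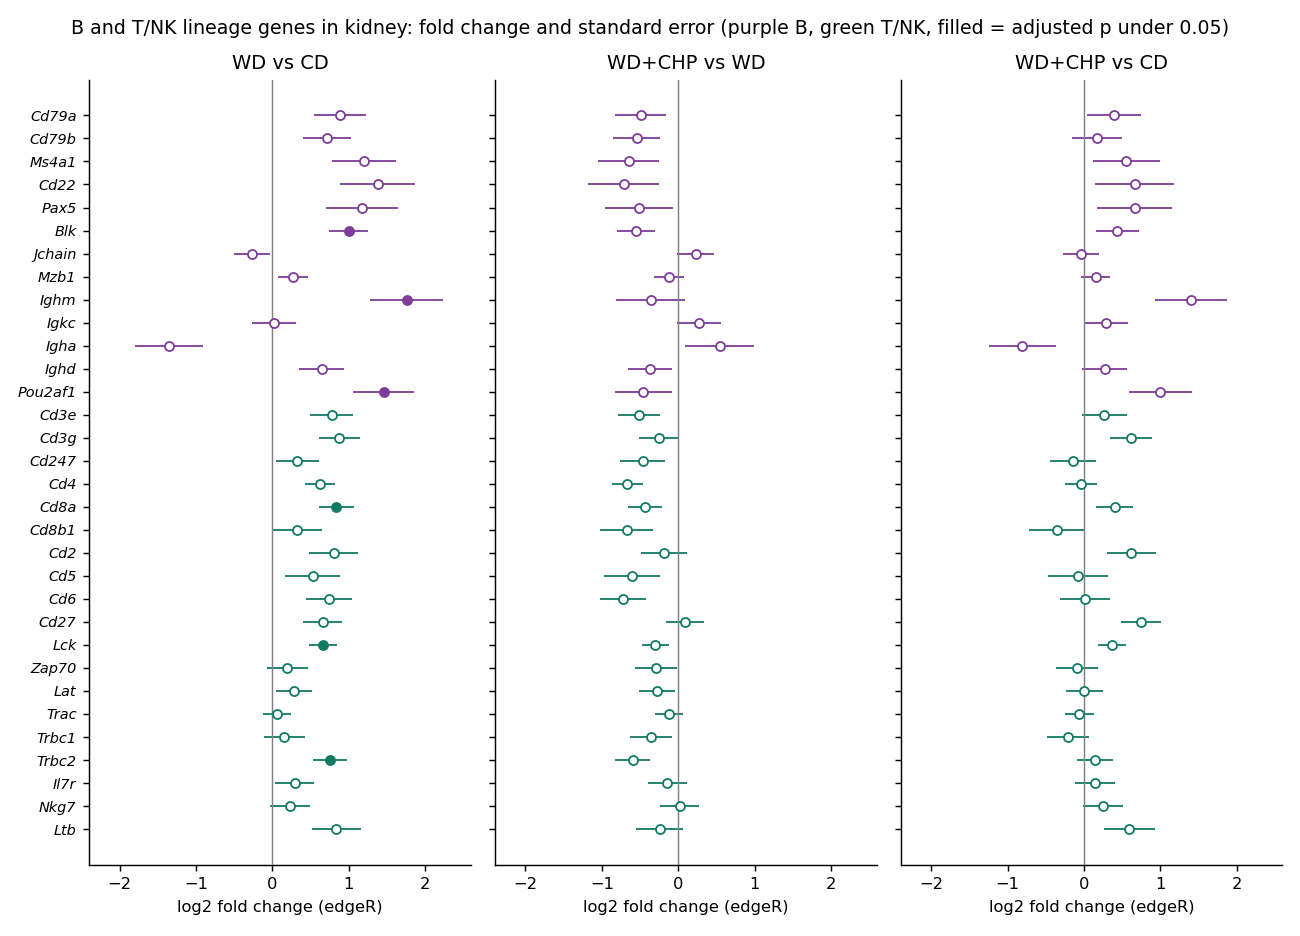
Log2 fold change and SE from edgeR for the 32 tested B and T/NK lineage genes in kidney, one panel per comparison. Filled points have an adjusted p under 0.05: 6 genes in WD vs. CD, 0 in the others.

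Genes of other lists, which were chosen with earlier results of these data known, gave context in kidney. Among further B and plasma cell genes, *Spib*, a transcription factor of B cells, and *Fcrla*, an Fc receptor-like protein of B cells, were the 2 that rose on the WD of the 19 tested genes of that list reported here, at log2 fold changes of 1.498 ± 0.43 (adjusted p = 0.0358) and 0.93 ± 0.27 (adjusted p = 0.0395). Of all genes, 9.65% were called. A result of that list is not reported here, so no reading is drawn from the share. In WD + CHP vs. CD, 2 of the 20 tested genes of that list rose, beside 12.1% of all genes called, the IgG constant gene *Ighg2c* (2.305 ± 0.68, adjusted p = 0.0373) and the plasma cell gene *Derl3* (1.395 ± 0.28, adjusted p = 0.00521). Of 16 further T and NK cell genes tested, 1 rose on the WD, also beside 9.65% of all genes, the chemokine *Ccl5* (0.81 ± 0.21, adjusted p = 0.0214). *Cxcl13*, which attracts B cells to lymphoid follicles, was the 1 tested gene of 7 of lymphoid organ stroma and rose from 0.0882 to 0.616 CPM on the WD (log2 fold change 2.76 ± 0.41, adjusted p = 0.000685). In WD + CHP it was at 0.257 CPM, also above CD (1.51 ± 0.47, adjusted p = 0.0441). All stromal genes together had 19 to 57 counts per library in WD, 4 to 12 in CD and 9 to 16 in WD + CHP. *Cxcl13* was thus near the floor in CD and passed the filter mainly through WD, where it was high. Its direction is not independent of the filter. The summed level of these stromal genes was 0.491 to 1.54 CPM in WD, 0.104 to 0.310 in CD and 0.250 to 0.444 in WD + CHP. It was highest in WD replicates 3 and 2, at 1.54 and 1.01 CPM. Of 12 genes of all leukocytes, 10 of macrophages and 3 of neutrophils tested, 0 were called by edgeR for WD vs. CD, with 4, 5 and 1 at an unadjusted p under 0.05. In direction, 11 of 12 leukocyte, 7 of 10 macrophage and 6 of 6 MHC class II genes were higher on the WD. The summed leukocyte level was 89.8 to 113 CPM in CD and 95.2 to 120 in WD. Of the 6 MHC class II genes, 1 rose, *H2-DMb1* (0.23 ± 0.052, adjusted p = 0.00953), and of 5 adipocyte genes tested 1 fell, *Cfd*. Of 8 proximal tubule genes, *Slc5a2* and *Miox* rose and *Cubn* fell. Of 3 fast fibre genes tested, 1 rose, *Pvalb*, which is also expressed in the distal tubule, and the summed fast fibre level was 17.5 to 19.3 CPM in CD and 22.4 to 28.7 in WD, with no overlap. Summed haemoglobin and *Alas2* levels were 17.2 to 176 CPM in CD, 34.3 to 206 in WD and 12.6 to 260 in the WD + CHP group. The highest of all was WD + CHP replicate 2, a library also high in B cell genes. WD replicates 3 and 2, also high in B cell genes, were the lowest of WD, at 34.3 and 47.3 CPM. WD replicate 4 and CD replicate 4, at 206 and 176 CPM, were not high in B cell genes. The part of these other cell types in the results was not tested.

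Of these calls for WD vs. CD, *Cxcl13* held without the 3 libraries high in B cell genes (2.27, adjusted p = 0.0102), as did *Slc5a2*, *Miox*, *Cubn* and *Pvalb*. Those of *Spib* (0.95, adjusted p = 0.216), *Fcrla* (0.68, adjusted p = 0.240), *Ccl5* (0.66, adjusted p = 0.0942), *H2-DMb1* (0.20, adjusted p = 0.0861) and *Cfd* (-1.87, adjusted p = 0.175) did not. For the B cell genes this loss was partly fixed in advance by the choice of libraries. For WD + CHP vs. CD, *Derl3* held (1.23, adjusted p = 0.0217), and *Ighg2c* (2.05, adjusted p = 0.112) and *Cxcl13* (1.36, adjusted p = 0.0637) did not. With 1 library left out in turn, *Cxcl13* on the WD and *Derl3* were called in 10 of 10 fits, *Ccl5* in 8, *Spib* and *Ighg2c* in 4, *Cxcl13* in WD + CHP in 2 and *Fcrla* in 1.

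Gastrocnemius held very few B and T cell transcripts, and *Ighm* and *Cd28* stood out by their level. *Cd79a* had 2, 6, 3, 5 and 3 counts in CD, 3, 0, 4, 8 and 4 in WD and 1, 2, 2, 2 and 5 in the WD + CHP group. *Ms4a1* had 3, 2, 1, 1 and 0 counts in CD, 2, 0, 3, 5 and 2 in WD and 1, 0, 0, 0 and 1 in the WD + CHP group. The other untested B lineage genes, *Cd79b*, *Cd22*, *Pax5*, *Blk*, *Pou2af1* and *Ighd*, had at most 14, 24, 9, 7, 12 and 13 counts in a library. *Ighm*, by contrast, was at 108, 61.6, 37.1, 96.8 and 50.02 CPM in CD, 62.2, 31.7, 49.96, 81.2 and 40.8 CPM in WD and 76.3, 42.8, 53.2, 34.7 and 54.2 CPM in WD + CHP, which is 1693 to 5600 counts per library. The 3 groups overlapped in *Ighm* (log2 fold change -0.41 ± 0.29, adjusted p = 0.418 for WD vs. CD).

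The partners of *Ighm* were not there at a like level. Per kb of exon, *Ighm* had a mean of 37.5 CPM per kb in CD gastrocnemius and *Igkc* 0.350, whereas in CD kidney they had 11.1 and 113. The ratio of *Igkc* to *Ighm* per kb was 2.22 to 41.2 in the kidney libraries and 0.00200 to 0.384 in those of gastrocnemius. *Ighv* segments had 0 to 26 counts per gastrocnemius library apart from WD replicate 4, which had 274, while the kidney libraries had 278 to 1056. Of the heavy-chain constant genes per kb, *Ighm* took 96.4% to 98.1% in CD, 92.1% to 93.9% in WD and 92.1% to 94.6% in WD + CHP, and the 4 Ighg genes 1.39% to 3.07%, 5.52% to 7.27% and 5.12% to 7.55%. In both shares the CD libraries did not overlap with those of the other groups, a description with no test of its own. *Igha* had 11, 18, 11, 18 and 13 counts in CD, 4, 9, 16, 34 and 8 in WD and 11, 7, 10, 3 and 5 in the WD + CHP group, with no call. *Ighm* is not overlapped by the exons of another gene in GENCODE M21, and which transcript its muscle reads came from was not tested.

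*Igkc* was the 1 of 5 B lineage genes tested that was called for WD vs. CD in gastrocnemius, and 0 of 4 T/NK lineage genes were, beside 8.63% of all 15419 genes. At an unadjusted p under 0.05 there were 2 of each lineage, beside 23.7% of all genes. Its counts were 6, 2, 6, 24 and 9 in CD, 8, 11, 35, 476 and 45 in WD and 9, 23, 14, 1 and 9 in the WD + CHP group. By limma-voom, with only the 2 groups compared and with the replicate number as a block it was not called (adjusted p = 0.235, 0.0839 and 0.0638). The call (log2 fold change 3.52 ± 1.01, adjusted p = 0.0402) rests on WD replicate 4, without which the log2 fold change was 1.32 (adjusted p = 0.238). It was also lost without CD replicate 1, 2, 3 or 5, at an adjusted p of up to 0.0871. For WD + CHP vs. WD, *Igkc* had a log2 fold change of -3.29 ± 0.99 (adjusted p = 0.173), and -1.10 (adjusted p = 0.461) without WD replicate 4. *Jchain* had 14, 9, 14, 32 and 13 counts in CD, 9, 17, 29, 149 and 27 in WD and 22, 19, 21, 9 and 9 in the WD + CHP group, again with WD replicate 4 far above the rest (log2 fold change 1.42 ± 0.61, adjusted p = 0.167). In the same library, *Cd22* had 24 counts, *Pou2af1* 12, *Lck* 12 and *Igkv* segments 459, while the other gastrocnemius libraries had 2 to 38 counts of *Igkv* segments. Without this library, *Jchain* had a log2 fold change of 0.26 (adjusted p = 0.757) for WD vs. CD.

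*Mzb1* was at 0.426, 0.586, 0.662, 0.611 and 0.557 CPM in CD, 0.629, 0.581, 0.585, 0.609 and 0.479 CPM in WD and 0.975, 0.667, 0.668, 0.824 and 1.07 CPM in WD + CHP. All 5 WD + CHP libraries lay above both other groups. WD + CHP vs. CD was called (log2 fold change 0.56 ± 0.17, adjusted p = 0.0470). It was the 1 of 5 B lineage genes called in that comparison, where 0 of 4 T/NK lineage genes were called, beside 9.4% of all genes, with 1 gene of each lineage at an unadjusted p under 0.05, beside 25.2% of all genes. WD + CHP vs. WD was not called (0.54 ± 0.17, adjusted p = 0.190). Leaving out single libraries kept the call of *Mzb1* in 2 of 10 cases, and the largest adjusted p was 0.125, without WD + CHP replicate 5. It was not called by limma-voom (adjusted p = 0.0548), with no filter (adjusted p = 0.111) or with only the 2 groups compared (adjusted p = 0.0709). With the replicate number as a block it was not called either (adjusted p = 0.0959). Exons of *Mzb1* share bases with *SPATA24*, so that its counts may include reads of that gene. In gastrocnemius, WD + CHP vs. WD gave no call: 0 of 9 genes were called by edgeR, DESeq2 and limma-voom, beside 0.409% of all genes, with 3 B lineage genes and 1 T/NK lineage gene at an unadjusted p under 0.05, beside 12.5% of all genes.

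Of the T/NK lineage, *Cd28*, the costimulatory receptor that binds B7 proteins, had the most counts of its lineage in muscle. Its counts were 221, 196, 191, 260 and 324 in CD, 183, 184, 171, 211 and 175 in WD and 177, 182, 150, 194 and 199 in the WD + CHP group. In WD 4 and in WD + CHP 3 libraries lay below every CD library. The differences did not pass the test by edgeR, at -0.42 ± 0.13 (adjusted p = 0.0577) for WD vs. CD and -0.42 ± 0.13 (adjusted p = 0.0589) for WD + CHP vs. CD, and passed by DESeq2, at -0.42 (adjusted p = 0.0295) and -0.41 (adjusted p = 0.0333). By edgeR they passed without CD replicate 2 (adjusted p = 0.0278 and 0.0307) or CD replicate 3 (adjusted p = 0.0349 and 0.0415). *Cd3e* had 3, 7, 3, 1 and 2 counts in CD, 1, 4, 3, 2 and 3 in WD and 1, 4, 1, 2 and 3 in the WD + CHP group. Per kb, the CD mean of *Cd28* was 0.759 CPM per kb and that of *Cd3e* 0.0151. In CD kidney the order was the opposite, 0.0118 for *Cd28* and 0.0686 for *Cd3e*.

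*Cd27* was at 0.793, 1.82, 0.721, 1.18 and 1.13 CPM in CD gastrocnemius, 0.705, 0.524, 0.914, 1.03 and 0.957 CPM in WD and 1.36, 1.49, 1.49, 1.49 and 1.24 CPM in WD + CHP. Every WD + CHP library lay above every WD library, and none above the highest CD library, and no comparison was called (log2 fold change 0.77 ± 0.23, adjusted p = 0.165 for WD + CHP vs. WD). *Cd247* had 28 to 86 counts and *Zap70* 11 to 38, both without a call. The remaining T/NK lineage genes were low. *Cd4* had 7, 7, 1, 8 and 4 counts in CD, 0, 7, 6, 10 and 8 in WD and 0, 20, 2, 3 and 7 in the WD + CHP group. *Cd8a* had 0, 1, 1, 1 and 2 counts in CD, 1, 1, 0, 5 and 1 in WD and 1, 1, 1, 0 and 1 in the WD + CHP group. WD replicate 4 held the most *Cd8a* counts, and the groups overlapped in both genes. *Lck* had 2, 2, 2, 2 and 2 counts in CD, 4, 2, 2, 12 and 1 in WD and 0, 1, 0, 0 and 2 in the WD + CHP group, again with WD replicate 4 highest. *Trbc2* had 0, 2, 1, 2 and 1 counts in CD, 0, 0, 0, 2 and 1 in WD and 0, 0, 1, 0 and 0 in the WD + CHP group. *Gzma* had 1, 1, 1, 1 and 1 counts in CD, 3, 1, 2, 0 and 3 in WD and 2, 0, 1, 1 and 1 in the WD + CHP group. These genes fell under the filter. In a fit with no filter, which tested all 36 genes, *Igkc* was the 1 gene called for WD vs. CD, and 0 were called by edgeR for the other 2 comparisons. *Trac* had 1 to 9, *Cd2* 3 to 14 and *Il7r* 3 to 12, and the other 10 untested genes (*Cd3d*, *Cd3g*, *Cd5*, *Cd6*, *Cd8b1*, *Lat*, *Ltb*, *Nkg7*, *Ptprcap* and *Trbc1*) had at most 10. Markers of other cells also differed between the groups: of 8 adipocyte genes, 4 rose on the WD (*Lep*, *Cidec*, *Adipoq* and *Plin1*) and 1 fell (*Cfd*), beside 8.63% of all genes called. The same 4 fell in WD + CHP vs. WD, beside 0.409% of all genes. The summed level of the 8 adipocyte genes was 361 to 462 CPM in CD, 382 to 572 in WD and 306 to 548 in the WD + CHP group. Of 8 fast fibre genes, 2 fell on the WD, *Ckm* and *Acta1*, beside 8.63% of all genes called. Red blood cell genes were higher on the WD in 4 of 4 and lower in WD + CHP vs. WD in 4 of 4, with 0 called by edgeR and 3 and 4 at an unadjusted p under 0.05, and summed to 2.59 to 12.2 CPM in CD, 3.83 to 49.4 in WD and 4.31 to 20.3 in WD + CHP. Of 12 leukocyte and 10 macrophage genes, 11 and 10 were higher on the WD, with 0 called by edgeR and 2 and 4 at an unadjusted p under 0.05, beside 23.7% of all genes. Leukocyte genes were lower in WD + CHP vs. WD in 12 of 12 and macrophage genes in 10 of 10, with 0 called by edgeR and 5 and 2 at an unadjusted p under 0.05. The part of these cells in the results was not tested. 

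**Figure D5:**
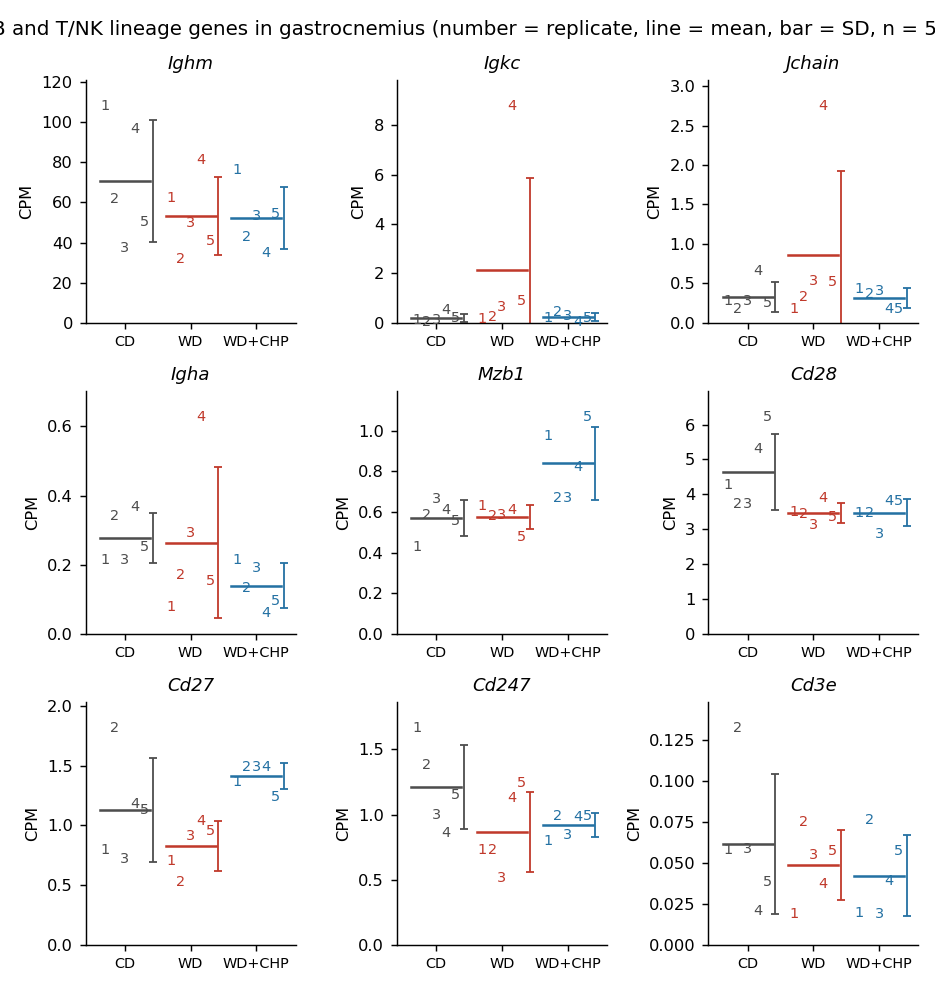
CPM of 9 B and T/NK lineage genes in each gastrocnemius library, each panel starting at 0. Digits are replicate numbers, lines are means and bars are SD (n = 5); WD replicate 4 stands far above the rest for *Igkc* and *Jchain* (their lower bars end at 0), and all 5 WD + CHP libraries are above the other groups for *Mzb1*.

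Between the tissues of CD mice, 34 of the 36 genes could be compared in 1 fit of all 30 libraries. Of these, 34 had an adjusted p under 0.05, beside 88.1% of all 18708 genes, so that a call says little about the list. Kidney was higher for 12 of 13 B lineage genes and 17 of 21 T/NK lineage genes. Of the genes higher in kidney, *Igkc* had the largest log2 difference, 7.55 ± 0.78 (adjusted p = 2.74e-10), followed by *Igha* at 6.90 ± 0.57 (adjusted p = 1.76e-12) and *Jchain* at 4.64 ± 0.47 (adjusted p = 1.95e-10). Gastrocnemius was higher for *Cd28* (-6.72 ± 0.22, adjusted p = 1.48e-22), *Ighm* (-2.56 ± 0.44, adjusted p = 4.13e-06), *Cd247* (-2.45 ± 0.27, adjusted p = 8.51e-10), *Cd27* (-1.80 ± 0.26, adjusted p = 1.95e-07) and *Zap70* (-1.03 ± 0.27, adjusted p = 0.000857). The median log2 difference of all genes was 0.13 with TMM and 0.97 with the total count as library size, under which *Zap70* was no longer called. The tissues differ in their extraction kit by the labels and in depth, and these cannot be told apart from the tissue.

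The WD effect itself differed between the tissues for 1 of the 34 genes, *Ighm*, and 4.13% of all genes were called in that comparison. Its log2 fold change on the WD was higher in kidney than in gastrocnemius by 2.17 ± 0.59 (adjusted p = 0.0329), from 1.76 in kidney and -0.41 in gastrocnemius. With 1 library left out in turn, *Ighm* was called in 10 of 20 fits, with a largest adjusted p of 0.0747 without kidney WD replicate 2. The call was also lost without kidney CD replicate 1, 3 or 5, kidney WD replicate 3, gastrocnemius CD replicate 1 or 4, or gastrocnemius WD replicate 2, 3 or 5, at log2 differences of 1.94 to 2.15. Without the 3 kidney libraries high in B cell genes it was 1.60 (adjusted p = 0.145). In WD + CHP vs. WD, 0 of the 34 genes differed between the tissues by edgeR and 1 (*Igkc*) of the 14 with an adjusted p by DESeq2, beside 0.347% of all genes, with 4 B lineage genes and 1 T/NK lineage gene at an unadjusted p under 0.05, beside 11.8% of all genes. For WD + CHP vs. CD, 0 differed by edgeR and 1 (*Ighm*) by DESeq2, beside 5.78% of all genes, with 2 and 3 genes at an unadjusted p under 0.05, beside 20.5% of all genes.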

How the data were processed

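The authors sequenced polyA-selected RNA on a BGISEQ-500, cleaned reads with SOAPnuke and aligned them with STAR 2.7.3a to GRCm38 (mm10), per the labels and the study's methods. The values the authors deposited are raw counts per gene and library, not normalised. The counting tool, annotation and strand setting are not given in the sources used here, so antisense and overlapping genes are uncertain. The labels name frozen liver as the starting material and a NucleoSpin kit for gastrocnemius, whereas the methods name the tissue itself and Direct-zol. The tissues were taken as the sample names give them. All columns were matched to a library, and 0 were left over. Of 54838 kidney and 55487 gastrocnemius identifiers, 54723 and 55141 were found in GENCODE M21, which gave coordinates and exon lengths.

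Counts were tested in R 4.3.3 with edgeR 4.0.16, using filterByExpr with a minimum count of 10, TMM and the quasi-likelihood F test, two-sided, in 1 fit of the 15 libraries of a tissue, and p-values were adjusted by Benjamini-Hochberg across every gene that passed the filter (threshold 0.05). Tissues were compared in a joint fit of 30 libraries over the 54500 genes in both tables. CPM use the TMM-scaled sizes. The SE is the log2 fold change over the square root of F. Between libraries of 1 group the chi-square per gene was 9.06 to 75.7, above sampling noise. Replicates are separate samples by the labels, and p-values measure the spread between them. Scripts were tested on simulated counts, in which 85.5% of 200 genes changed by a fold of 2 were called in kidney and 82.5% in gastrocnemius for WD vs. CD. False calls numbered 9 and 4. The 200 genes were drawn from all genes that passed the filter, so these rates are not those of the low genes described here. Limma 3.58.1 and DESeq2 1.42.0 were alternatives. Figures used matplotlib 3.10.9 (Python 3.11.15).

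The genes, the other lists and the rule for naming genes were chosen with earlier results of these data known. Named in full were genes called in a tissue, *Cd79a*, *Ms4a1*, *Ighm*, *Igkc*, *Igha*, *Jchain*, *Cd3e*, *Cd4*, *Cd8a*, *Trbc2*, *Lck* and *Gzma*, and the gene with the smallest p in each tissue, comparison and lineage. Genes called in the lists of immune cells and adipocytes were named, at most 4 per list and comparison. Called genes of the proximal tubule and fast fibre lists were named after their values were seen. A result of the further B cell list is not reported here.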

Additional observations from a re-analysis of the deposited data

Results flagged for a closer look

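Of 63 groups of 5 libraries examined for a library far from the rest, 6 held one, where chance gives about 1 in 20. The gap to the nearest library, as a share of the group's whole range, is given. In kidney, it was 0.803 for *Cd79a* in WD + CHP replicate 2 (1.75 CPM, others 0.679 to 0.890), 0.744 for *Igha* in WD replicate 5 (55.0 CPM, others 6.47 to 18.9) and 0.805 for *Trbc2* in CD replicate 3 (0.915 CPM, others 0.483 to 0.568). In gastrocnemius, it was 0.918 for *Igkc* and 0.861 for *Jchain* in WD replicate 4 (8.79 and 2.75 CPM, others 0.153 to 0.861 and 0.172 to 0.530), and 0.787 for *Jchain* in CD replicate 4 (0.651 CPM, others 0.170 to 0.273). The WD effect on *Ighm* differed between the tissues, by a log2 difference of 2.17 (kidney minus gastrocnemius) in an interaction test. The causes were not tested.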

How the results depend on the processing

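In kidney for WD vs. CD, the 6 genes called became 9 with DESeq2, 12 at an adjusted p under 0.1, 0 without the 3 libraries high in B cell genes (a choice made after the data were seen), and 1 to 10 with 1 library left out. In WD + CHP vs. CD of kidney, 0 became 1 with DESeq2 and with no filter, 2 at an adjusted p under 0.1 and with only the 2 groups compared, and 0 to 2 with 1 library left out. In gastrocnemius, the 1 gene of WD vs. CD and the 1 gene of WD + CHP vs. CD each became 2 with DESeq2 and at an adjusted p under 0.1, and 0 with limma-voom and with only the 2 groups compared. The first was also 0 with at least 10 counts in every library and the second 0 with no filter, and each was 0 to 1 with 1 library left out. Between tissues, the 1 gene of WD vs. CD became 3 with DESeq2, 2 with the total count as library size, 4 at an adjusted p under 0.1, 0 without the 3 libraries, and 0 to 2 with 1 library left out. For WD + CHP vs. WD, 0 became 1 with DESeq2. For WD + CHP vs. CD, 0 became 1 with DESeq2, with at least 10 counts in every library and at an adjusted p under 0.1, and 0 to 1 with 1 library left out. Between CD groups, the filter of at least 10 counts left 3 genes, all called. No direction of a called gene reversed in the alternatives run. The causes were not tested. In kidney, 10 of 23 T/NK lineage genes had under 30 counts in every library, which limits what can be called.

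Replicate numbers did not pair the samples: same-numbered deviations correlated at -0.13 to 0.15, and in each comparison within a tissue at most 2 of 5 libraries correlated best with their own number. With the replicate block, kidney calls were 9 (*Cd8a* not among them, adjusted p = 0.0615), 0 and 2 for WD vs. CD, WD + CHP vs. WD and WD + CHP vs. CD. Those of gastrocnemius were 1, 0 and 1 (*Cd28* in both), and those between tissues 2, 0 and 1. DESeq2 gives no adjusted p to genes its own filter drops.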
